A study of Mus musculus with 6 samples.

Results

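Mitochondria take up calcium through a chain of membrane proteins, and 7 genes of that chain were examined in immortalized mouse fibroblasts (MF). They encode the pore of the uniporter complex (*Mcu*), its essential small subunit EMRE (*Smdt1*), a gatekeeper subunit (*Micu2*), an inner membrane exchanger (*Letm1*) and the voltage-dependent anion channels of the outer membrane (*Vdac1*, *Vdac2* and *Vdac3*). The genes were chosen by name, and all 7 were found among the 19078 genes of the deposited table. Of these, 4 were listed under their current symbol. The other 3 were listed under older symbols, *Mcu* as *Ccdc109a*, *Micu2* as *Efha1* and *Smdt1* as *1500032L24Rik*, and were matched through the synonyms of RefSeq.

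Calcium released from the endoplasmic reticulum (ER) crosses the outer mitochondrial membrane through VDAC channels, which also carry metabolites such as ATP and ADP. It then enters the matrix through the MCU pore, driven by the membrane potential. EMRE is needed for the pore to open in animals, and the MICU proteins sense calcium in the intermembrane space and keep the pore closed at rest. LETM1 has been described both as a calcium-proton and as a potassium-proton exchanger.

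RNAseq was performed on poly(A)-selected RNA of 3 *Ms4a15* OE and 3 control libraries. *Ms4a15* encodes an ER membrane protein of the MS4A family, and the study asked which genes differ in expression when it is overexpressed. All cells derive from embryonic fibroblasts that carry conditional *Gpx4* alleles and Cre-ERt2, and into which a CRISPR activation system had been introduced. *Ms4a15* OE cells are a pool that received a guide directed at *Ms4a15* by lentivirus, while the study's methods describe control cells as infected with empty lentivirus. By genotype, the labels describe the control libraries as wild type. No further treatment and no time point is given for either group, and the labels do not say whether the 3 libraries of a group came from separate cultures.

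The guide is shown because it is the designed difference between the groups. It was found in 1 of 32851 promoter windows of RefSeq (GRCm38.p6), that of *Ms4a15*, from 111 to 130 bases before the start of the gene and on the gene's strand, at chr19:10993361-10993380. The capitals mark the adjacent 3 bases of the genome, which read as a PAM (NGG).
*Ms4a15* OE guide: aaagactgaagcaagggactGGG

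Levels are given as the authors' mean over all 6 libraries of normalized counts, that is, of reads per gene divided by a size factor that corrects each library for depth. This mean pools *Ms4a15* OE and control, and values of single libraries and of single groups were not analysed here. No difference between *Ms4a15* OE and control is therefore given for any gene, and there is no SD and no test. For the same reason the targeted gene could not be checked against the labels. Its pooled mean was 638 normalized counts. The depth of the libraries was read from 1267 genes with 1 read in 1 library and none in the others, whose means take 6 values. Each value multiplied by the number of libraries is the inverse of a size factor. These size factors ran from 0.887 to 1.14, and the table sums to 40991755 normalized counts for an average library. A 95% interval beside a level covers counting error only, which was between 0.330% and 1.73% of the mean (standard error) for the 7 genes. The spread between libraries is not part of it.

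Levels of different genes are compared per kilobase (kb) of exon, since a longer transcript yields more reads. The length is that of all exons of a gene's coding transcripts in GENCODE M21, merged. The study's methods name another annotation, UCSC knownGene, so reads and lengths rest on different gene models. What this does to the levels was not tested. A length was found for 16518 genes, 86.6% of the table. The median level over these genes was 145 normalized counts per kb, and all 7 calcium uptake genes were above it. This median includes genes with next to no reads. Over the 11894 genes with a length that averaged 10 or more normalized counts it was 366 per kb, and 6 of the 7 genes were above that, with *Mcu* below. They spanned a 42.6-fold range per kb and a 27.4-fold range of mean counts, and together they held 0.107% of all normalized counts. The highest levels were those of the VDAC genes and the lowest was that of *Mcu*.

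**Figure D1:**
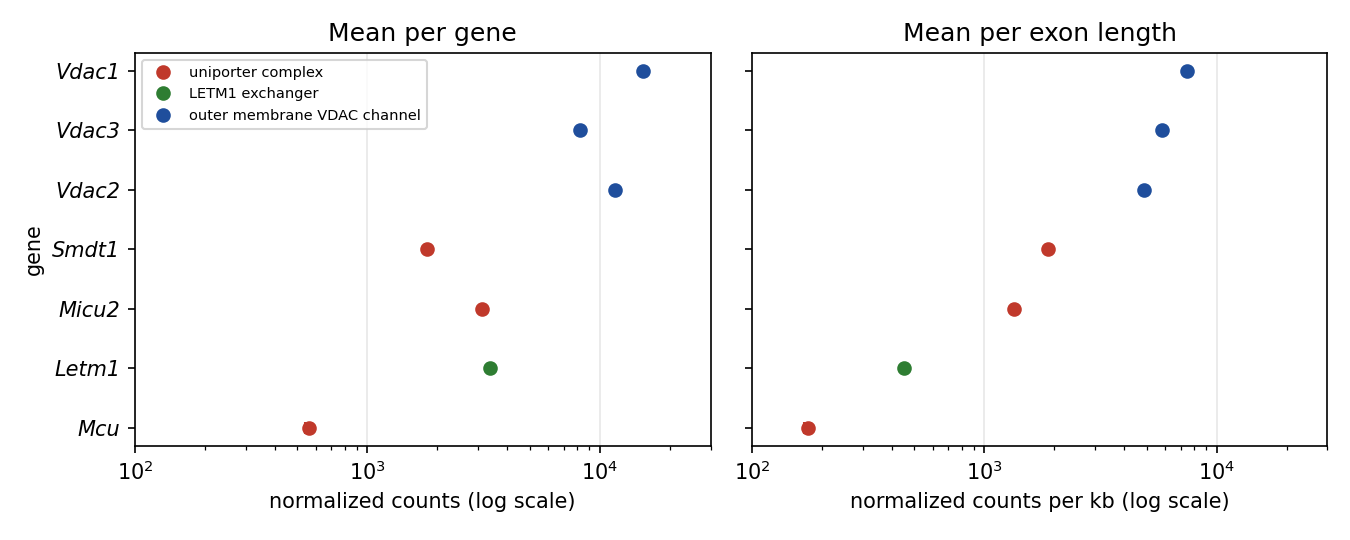
Mean over the 6 libraries of each gene, as normalized counts (left, log axis) and as normalized counts per kb of exon (right, log axis), with genes as rows ordered by the right panel. Points are pooled means of *Ms4a15* OE and control, bars are 95% intervals for counting error and are mostly narrower than the points, and *Mcu* stands lowest in both panels at 559 normalized counts and 174 per kb.

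The VDAC channels were the most abundant part of the chain. *Vdac1*, on the forward strand of chromosome 11 (GRCm38, chr11:52360860-52389397), encodes the isoform best known as a partner of IP3 receptors at ER contacts. Its mean was 15297 normalized counts. Per kb its level was 7433 (95% interval 7385 to 7481), above 98.1% of the genes with a length. *Vdac2* (chr14:21825238-21845879), whose product also holds the apoptosis effector BAK at the outer membrane, had a mean of 11606 normalized counts. Its level per kb was 4854 (4818 to 4890), above 96.7% of the genes. For *Vdac3* (chr8:22577075-22593813), the isoform with the weakest channel activity in reconstituted membranes, the mean was 8258 normalized counts. Per kb this was 5804 (5752 to 5855), above 97.4% of the genes.

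The isoforms thus lay close together relative to the rest of the chain. Of the summed VDAC level per kb, *Vdac1* made up 41.1%, *Vdac3* 32.1% and *Vdac2* 26.8%. *Vdac1* was 1.53-fold above *Vdac2* per kb and 1.28-fold above *Vdac3*. In mean counts the order of *Vdac2* and *Vdac3* was the other way round, since the *Vdac3* gene model is shorter, at 1423 bases against 2391. Counting error was smaller than each of these gaps, but whether the gaps exceed the spread between libraries could not be computed.

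The place of *Vdac3* is uncertain for another reason. Of the 1255 windows of 100 bases in its principal transcript, 548 (43.7%) occur without mismatch in an annotated transcript of another gene, namely the pseudogene *Vdac3-ps1* and the gene model *Gm7591*. For *Vdac2* it was 17 windows, or 0.916%, shared with *Gm7832*, and for the other 5 genes it was 0 windows. Reads from shared sequence can be assigned to either copy or be left out, and how they were treated in these counts was not tested. If the mean of *Vdac3* is divided by its 707 unshared windows instead, its level becomes 11681 per kb, against 7955 for *Vdac1* computed in the same way, and *Vdac3* moves above *Vdac1*. This division treats all reads from shared windows as lost. The study's methods describe paired-end runs of 100 bases, and a pair with 1 mate in unshared sequence could still be counted. With coding length in place of exons, *Vdac2* was 1.35-fold above *Vdac3*. *Vdac1* stayed above *Vdac2* under all 4 lengths, by 1.26-fold to 1.53-fold.

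**Figure D2:**
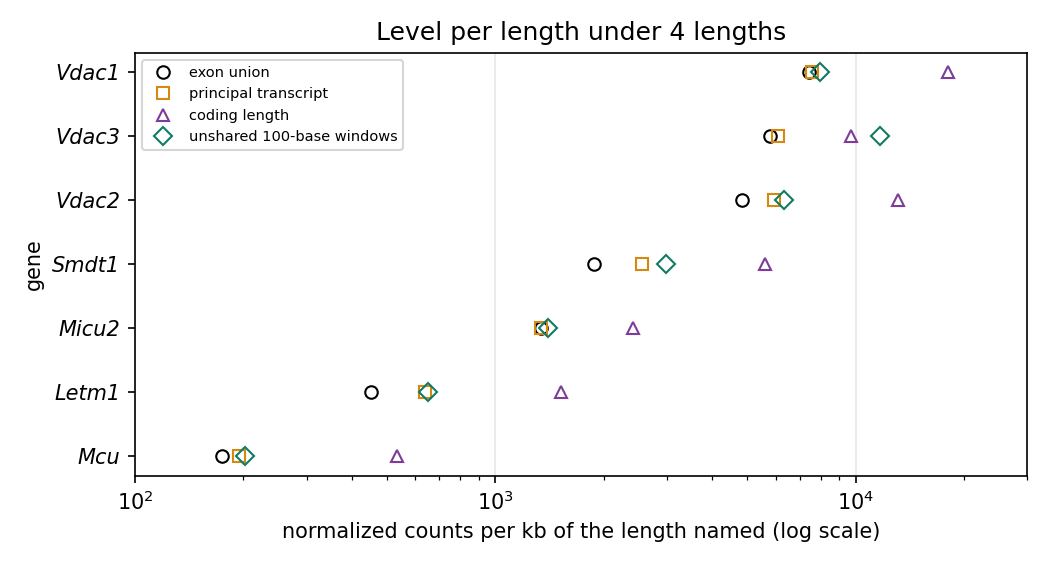
Level of each gene per kb (log axis) with the pooled mean divided by the merged exons, the principal transcript, its coding length or its unshared 100-base windows. The VDAC genes stand above the other 4 genes under each length, with *Vdac3* ahead of *Vdac1* only for the unshared windows, at 11681 against 7955.

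Of the 3 uniporter complex genes examined, the pore gene had the lowest transcript level. *Mcu*, on the reverse strand of chromosome 10 (chr10:59446984-59616692), had a mean of 559 normalized counts. Its level of 174 per kb (168 to 180) lay above only 52.4% of the genes with a length, and above 33.8% of those that averaged 10 or more normalized counts. *Smdt1* (chr15:82338959-82349091), with a merged exon length of 958 bases the shortest of the 7 genes, had a mean of 1799 normalized counts. At 1878 per kb (1842 to 1913) it was above 90.3% of the genes. *Micu2* (chr14:57916261-57999262), which encodes a calcium-binding EF-hand protein, had a mean of 3121 normalized counts. Its 1340.2 per kb (1321 to 1359) was above 86.0% of the genes.

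Relative to the pore, *Smdt1* was thus 10.8-fold and *Micu2* 7.69-fold more abundant per kb, and *Vdac1* 42.6-fold. The excess over *Mcu* held under every length tried. For *Smdt1* it lay between 10.5-fold (coding length) and 14.7-fold (unshared windows), and for *Micu2* between 4.52-fold and 7.69-fold. *Smdt1* was 1.40-fold above *Micu2* per kb, although *Micu2* had more reads. These are ratios of transcripts in a pooled mean and say nothing of the number of protein subunits in a complex.

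Other partners of the complex that are not among the 7 genes were listed by name as well. *Mcub*, which encodes a pore subunit that lowers the conductance of the complex, was 3.97-fold above *Mcu* per kb (692 against 174). The size of this gap depends on length, since with coding length it was 1.66-fold. *Micu3*, a MICU paralog best known from neurons, was at 168 per kb, 7.98-fold below *Micu2*. *Mcur1*, proposed as a regulator of complex assembly, was at 311 per kb, or 1.79-fold above *Mcu*. *Slc25a23*, a calcium-regulated ATP-Mg/phosphate carrier reported to bind the pore, was all but undetected, with a mean of 0.620 normalized counts, under 3 counts per library. Of these 4 partners, 3 were above the median of all genes per kb, but *Mcub* was the 1 partner above that of genes averaging 10 or more normalized counts. No exon of *Mcu*, *Smdt1*, *Micu2*, *Letm1*, *Vdac1* or *Vdac3* overlaps that of another gene, and 1.05% of the *Vdac2* exons overlap *Comtd1* on the other strand. The antisense overlap is 11.6% for *Micu3*, 4.22% for *Slc25a23* and 12.7% for *Letm2*, a gene described below. Whether strand was used in counting is not given in the sources used here.

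**Figure D3:**
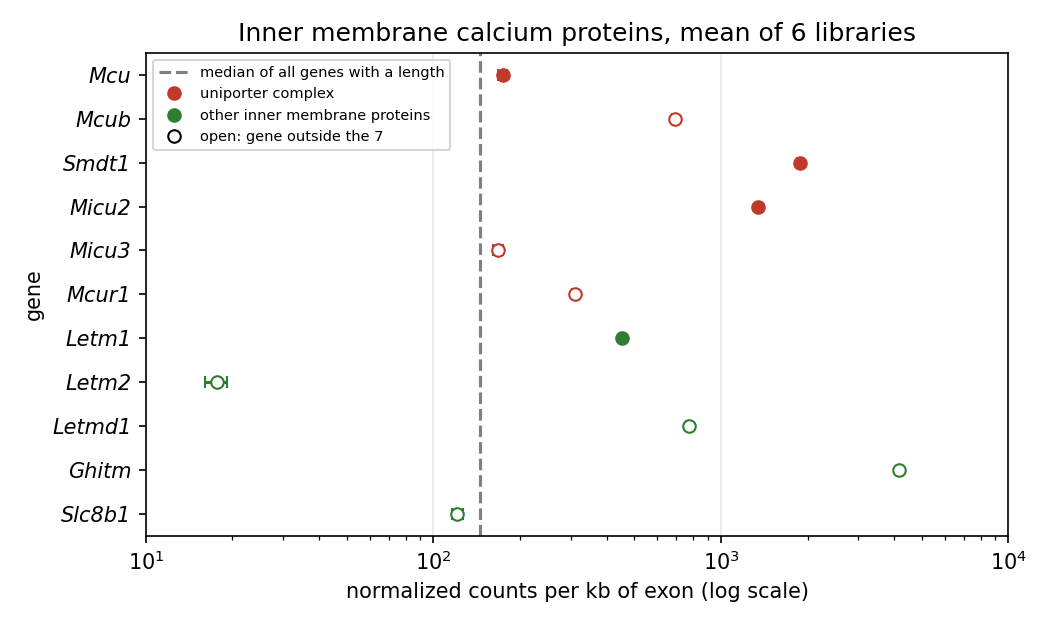
Level per kb of exon (log axis) of uniporter complex genes and of other inner membrane proteins, with filled points for the genes examined and open points for genes added from the lists. Bars are 95% intervals for counting error and the dashed line is the median of all genes with a length, 145 per kb. Of the uniporter complex genes plotted, which leave out *Slc25a23* at 0.184, *Smdt1* is highest and *Mcu* and *Micu3* are lowest, while *Ghitm*, at 4172, exceeds each of them.

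*Letm1*, the exchanger of the set, lies on chromosome 5 (chr5:33739673-33782817) in mouse, and the human gene is in the region deleted in Wolf-Hirschhorn syndrome. It had a mean of 3365 normalized counts, more than *Micu2* or *Smdt1*. As its merged exons span 7425 bases, the longest of the 7 genes, its level per kb was only 453 (447 to 459), above 67.4% of the genes. Per kb it was 2.60-fold above *Mcu* and *Micu2* was 2.96-fold above it. Divided by coding length instead, its level was 3.35-fold higher at 1519.7 per kb, the widest change by coding length among the 7 genes.

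Genes for other inner membrane proteins that carry calcium, or have been proposed to, differed widely in level. *Ghitm* encodes TMBIM5, reported as a calcium-proton exchanger, and at 4172 per kb it was 9.21-fold above *Letm1*. *Letmd1*, which shares the LETM1 domain, was 1.70-fold above *Letm1* with merged exons and 1.18-fold with coding length. The paralog *Letm2* was at 17.6 per kb, so *Letm1* was 25.7-fold above it. *Slc8b1*, listed as *Slc24a6*, encodes NCLX, the sodium-calcium exchanger through which calcium leaves the matrix. It was at 121 per kb, under the median of all genes and at 0.695 times the level of *Mcu*. Among the uniporter genes, partners and other inner membrane genes named so far, the lowest transcript levels per kb were those of *Slc25a23*, *Letm2*, *Slc8b1*, *Micu3* and *Mcu*.

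Genes that act before the uptake step at ER contacts mostly had higher levels than *Mcu*. So did many other genes, since *Mcu* lay above only 33.8% of those averaging 10 or more normalized counts. Of 14 genes of ER to mitochondria contacts, all were in the table and 12 were above the median of all genes, with a median of 798 per kb. The IP3 receptor genes, whose products release calcium from the ER, were at 668 for *Itpr3*, 411 for *Itpr1* and 136 for *Itpr2*. By western blot the study reported less of the *Itpr1* product in *Ms4a15* OE cells. The transcript level here pools both groups and cannot show such a difference. *Hspa9*, encoding the chaperone GRP75 that links IP3 receptors to VDAC1, was at 17691 per kb, above 99.2% of the genes. The contact genes *Bcap31* and *Fis1* stood at 5501 and 5291 per kb, near *Vdac3*, and the fusion gene *Mfn2* at 1029. *Pacs2* was the lowest of the list at 85.5.

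Of 6 genes for proteins that process or protect newly made uniporter subunits, 6 were above the median of all genes, with a median of 1843 per kb, and 5 were above that of genes averaging 10 or more normalized counts. *Yme1l1*, a protease of the inner membrane, was at 2033, and *Afg3l2*, which removes unassembled EMRE, at 1654. *Maip1*, which protects newly imported EMRE, is not a protease and was the lowest at 261, below the latter median. Among 8 genes for matrix targets of calcium and the permeability transition, 7 were above the median. *Pdha1*, of the pyruvate dehydrogenase complex, was at 5268 per kb, whereas *Pdp1*, the calcium-activated phosphatase of that complex, was at 97.4. *Ppif*, encoding cyclophilin D of the permeability transition pore, was at 1006. All 5 outer membrane partners of VDAC were above the median, with *Tspo* at 4401 and the hexokinase genes *Hk1* and *Hk2* at 1058 and 794.

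**Figure D4:**
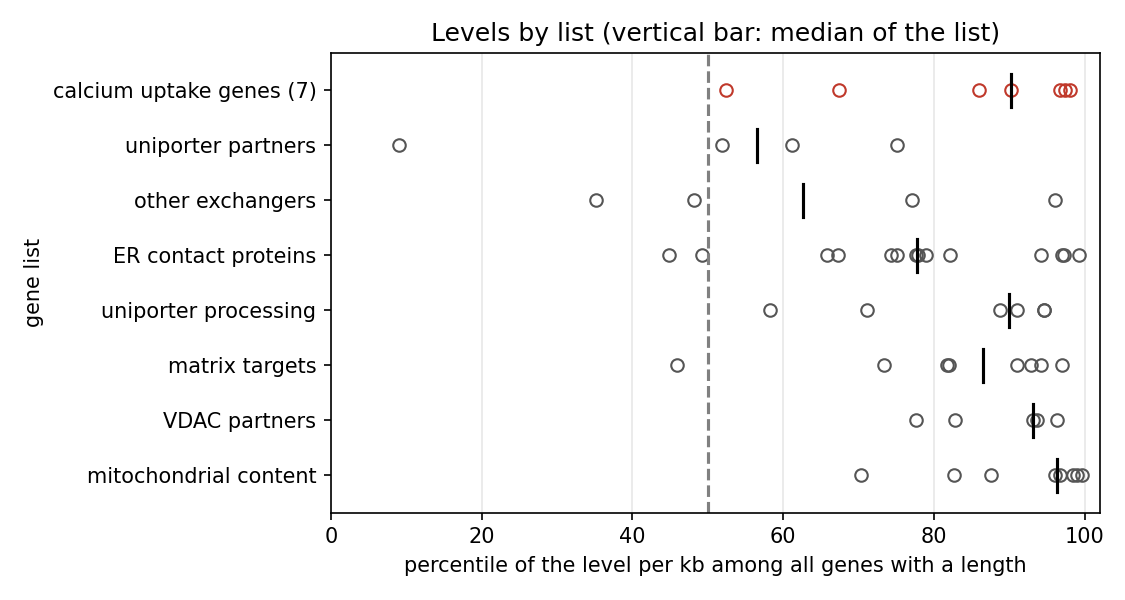
Percentile of each gene's level per kb among the 16518 genes with a length, by gene list. Points are genes and vertical bars the median of each list; the 7 calcium uptake genes have a median percentile of 90.3, between the uniporter partners at 56.5 and the mitochondrial content genes at 96.4.

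The VDAC genes, *Smdt1* and *Micu2* lay within the range of the genes of mitochondrial content, and *Letm1* and *Mcu* lay below that range. The 8 content genes had a median of 4547 per kb and ranged from 534 (*Tfam*) to 32196 (*Hspd1*). *Cs*, citrate synthase, was at 8877 and *Tomm22*, a subunit of the import channel of the outer membrane, at 4946, against 7433 for *Vdac1* and 4854 for *Vdac2*. *Letm1*, at 453, and *Mcu*, at 174, were below each of the 8.

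Markers were used to check the labelled cell type. Of 9 fibroblast markers, 8 were above the median of all genes per kb, among them *Vim* (52501), *Col1a2* (25272) and *Fn1* (13474), while *Pdgfra* was at 31.7. All 5 epithelial markers were at or below 5.56 per kb and all 4 endothelial markers at or below 26.7. Of the 5 myeloid markers, 4 were found, with *Ptprc* and *Csf1r* at 2.18 and 2.71 but *Cd68* at 131 and *Lyz2* at 405. Any part of such cells in the levels above was not tested.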

How the data were processed

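The authors used STAR on the mouse assembly mm10 with the UCSC knownGene annotation, then HTSeq-count for reads on each gene, as their methods state. The submitters' processing notes, however, name TopHat, Cufflinks and Cuffdiff beside HTSeq and DESeq2. The signal used here is 1 column of the authors' deposited table, in which normalized counts are averaged over the 6 libraries. The remaining 5 columns hold the authors' own comparison (fold changes, standard errors, p-values and direction) and were not used. The tests planned on counts or FPKM of single libraries were therefore not run, and levels are described without a test.

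Exon lengths and positions came from the basic set of GENCODE M21 (GRCm38, the assembly of mm10) and promoter windows from RefSeq, 250 bases before to 50 after each start. Principal transcripts were those of APPRIS. Counting intervals were taken from the mean and the size factors, on the assumption of a Poisson count and 1 mean for all libraries. The recovery of size factors and the intervals were tested on simulated data. Every gene of the fixed lists could be named, except 1 that is not reported here, and these genes, like the 7 examined, were chosen with earlier results of these data known. Python 3.11.15 and matplotlib 3.10.9 were used.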

Additional observations from a re-analysis of the deposited data

How the results depend on the processing

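The median percentile of the 7 genes was 90.3 among all genes with a length. Against genes averaging 10 or more normalized counts it was 86.5, and it was 92.4 with the principal transcript, 91.7 with coding length and 84.5 with no length correction. Of the 4 uniporter partners, 3 were above the median of all genes and 1 above that of genes averaging 10 or more normalized counts. *Mcu* was above 52.4% and 33.8% of these genes, respectively. Of 49 ratios between genes recomputed with other lengths, 47 kept their direction, but only 3 stayed within the counting interval of the main ratio. *Vdac2* over *Vdac3* turned to a log2 ratio of 0.43 with coding length, and *Vdac1* over *Vdac3* to -0.55 with unshared windows. The latter follows from the 548 windows removed from *Vdac3*. The choice of length accounts for the former. Mean counts with no length were not among these 49 ratios. In mean counts, *Smdt1* over *Micu2* was 0.576, *Smdt1* over *Letm1* 0.535 and *Micu2* over *Letm1* 0.928. *Letmd1* over *Letm1* was 0.574 and *Vdac2* over *Vdac3* 1.41. Each of these is opposite to the direction per kb of merged exons, and the remaining pairs kept theirs.

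All lengths other than the merged exons were chosen after seeing the data. Level per residue of the protein was planned and not run, since no protein table was used. Size factors of another tool, filters, pseudocounts, a minimum fold change and leaving out each replicate had been foreseen too, but need counts of each library. No paired analysis was possible because the mean used here pools all 6 libraries. At this depth counting error was small, and the spread between libraries is unknown. The length used is a further source of error in levels per kb. Between merged exons, principal transcript and coding length, the level changed by 1.68-fold for *Vdac3* and up to 3.35-fold for *Letm1*.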

Other observations

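Within the mitochondrial lists, the highest levels were those of genes for matrix chaperones. *Hspd1*, encoding HSP60, was at 32196 normalized counts per kb and *Hspa9* at 17691, followed by the respiratory chain gene *Cox4i1* at 12969. *Slc25a24*, a calcium-regulated ATP-Mg/phosphate carrier and paralog of *Slc25a23*, was at 2491 per kb, whereas *Slc25a23* was at 0.184.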
